A study of Mus musculus with 11 samples.

Results

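The sinusoidal endothelial genes of the mouse liver were examined: Stab1, Stab2, Lyve1, Pecam1, Kdr, Flt4, Clec4g, Fcgr2b, Wnt2 and Rspo3. These 10 genes were chosen by name, and all probes that carried their RefSeq accessions were taken, which gave 12 of the 56605 probes on the array (2 each for Stab2 and Fcgr2b, 1 for each of the others). Whole livers of male C57Bl6/J mice were collected 5 days after an intraperitoneal injection of adeno-associated virus serotype 8 (AAV8), a vector that transduces hepatocytes efficiently, given at 8 weeks of age. The GFP group (3 arrays) received AAV8-GFP at 6e+11 viral genomes (vg) per mouse. The NICD1 group (3 arrays) received 3e+11 vg of AAV8-NICD1 with 3e+11 vg of AAV8-GFP, the NICD2 group (3 arrays) 3e+11 vg of AAV8-NICD2 with 3e+11 vg of AAV8-GFP, and the NICD1&2 group (2 arrays) 3e+11 vg of each NICD vector and no AAV8-GFP. NICD1 and NICD2 stand for the Notch1 and Notch2 intracellular domains, the receptor fragments that act in the nucleus. The vectors carried the CMV promoter, which is not restricted to hepatocytes, and the cells that expressed NICD in the endothelium were not measured here.

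Liver sinusoidal endothelial cells line the capillaries of the hepatic lobule. They have open pores and little basement membrane, and they clear waste molecules and immune complexes from the blood through scavenger, lectin and Fc receptors. Those around the central vein also release Wnt2 and R-spondin 3, which keep the neighbouring hepatocytes in the perivenous state, and Notch signaling within the endothelium is known to shift sinusoidal cells toward a more continuous, capillary type of vessel. The comparison therefore asks whether the endothelial part of the liver transcriptome differed when active Notch1, active Notch2 or both were delivered.

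The Notch intracellular domains act through the DNA-binding protein RBPJ, and ETS factors are general regulators of endothelial genes, so the bases upstream of the member genes were searched for the letters of both sites. The RefSeq promoter table (GRCm38.p6) held 7 of the 10 genes, namely Stab1, Stab2, Kdr, Flt4, Clec4g, Fcgr2b and Wnt2, and the 250 bases before each start were read on both strands for TGGGAA (RBPJ) and AGGAAG (ETS), which share the letters GGAA. The RBPJ letters were found upstream of 1 of the 7 genes, Kdr, at position -128 on its own strand, counted from the start, against 21.6% of all 32851 promoters of the table. The ETS letters were found upstream of 3 of the 7, Stab1, Stab2 and Clec4g, against 29.5% of all promoters. The sequences of these 4 genes are shown because they hold the letters, and the capitals mark the matches. They lie on the minus strand at chr5:75978456-75978705 (Kdr), chr14:31168642-31168891 (Stab1), chr10:87007943-87008192 (Stab2) and chr8:3720652-3720901 (Clec4g), and in Clec4g the matches at -86 and -82 overlap. A match of letters is a description of the sequence and not a binding site.
Kdr: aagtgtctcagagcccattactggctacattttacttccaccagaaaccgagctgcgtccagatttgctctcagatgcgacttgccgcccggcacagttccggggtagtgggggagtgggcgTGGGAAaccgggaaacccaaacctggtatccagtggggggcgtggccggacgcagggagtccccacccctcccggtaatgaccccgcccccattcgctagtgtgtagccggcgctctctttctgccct
Stab1: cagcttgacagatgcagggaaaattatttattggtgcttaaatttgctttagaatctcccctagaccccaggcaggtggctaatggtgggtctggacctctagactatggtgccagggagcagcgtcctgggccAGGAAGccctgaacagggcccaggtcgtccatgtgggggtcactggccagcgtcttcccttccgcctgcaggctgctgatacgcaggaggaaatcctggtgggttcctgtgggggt
Stab2: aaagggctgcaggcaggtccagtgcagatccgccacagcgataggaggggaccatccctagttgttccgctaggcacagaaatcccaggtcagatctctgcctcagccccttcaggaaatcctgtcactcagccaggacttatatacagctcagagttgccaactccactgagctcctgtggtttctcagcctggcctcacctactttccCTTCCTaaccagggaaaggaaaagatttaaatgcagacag
Clec4g: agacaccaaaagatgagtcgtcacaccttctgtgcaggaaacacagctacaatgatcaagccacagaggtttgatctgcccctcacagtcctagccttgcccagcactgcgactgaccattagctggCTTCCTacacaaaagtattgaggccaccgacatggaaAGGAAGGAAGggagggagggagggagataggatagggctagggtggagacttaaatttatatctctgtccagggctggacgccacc

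Values are log2 signals relative to the 75th percentile of their own array, so 0 is the signal at that percentile and 1 unit is a doubling. All 12 probes were well above background on 11 of 11 arrays, so sinusoidal endothelial RNA was measured in every liver. On this scale the lowest and highest arrays differed by 1.28 for Lyve1 and by 0.31 to 0.67 for the other 9 genes. Because the RNA came from whole liver, fewer endothelial cells and less RNA per endothelial cell cannot be told apart. The median over all tested probes was 0.12 in the comparison of NICD1&2 with GFP, against 0.01 for NICD1 and 0.02 for NICD2, so the values of NICD1&2 are read against that shift. The 3 comparisons with GFP share the same 3 GFP arrays.

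**Figure D1:**
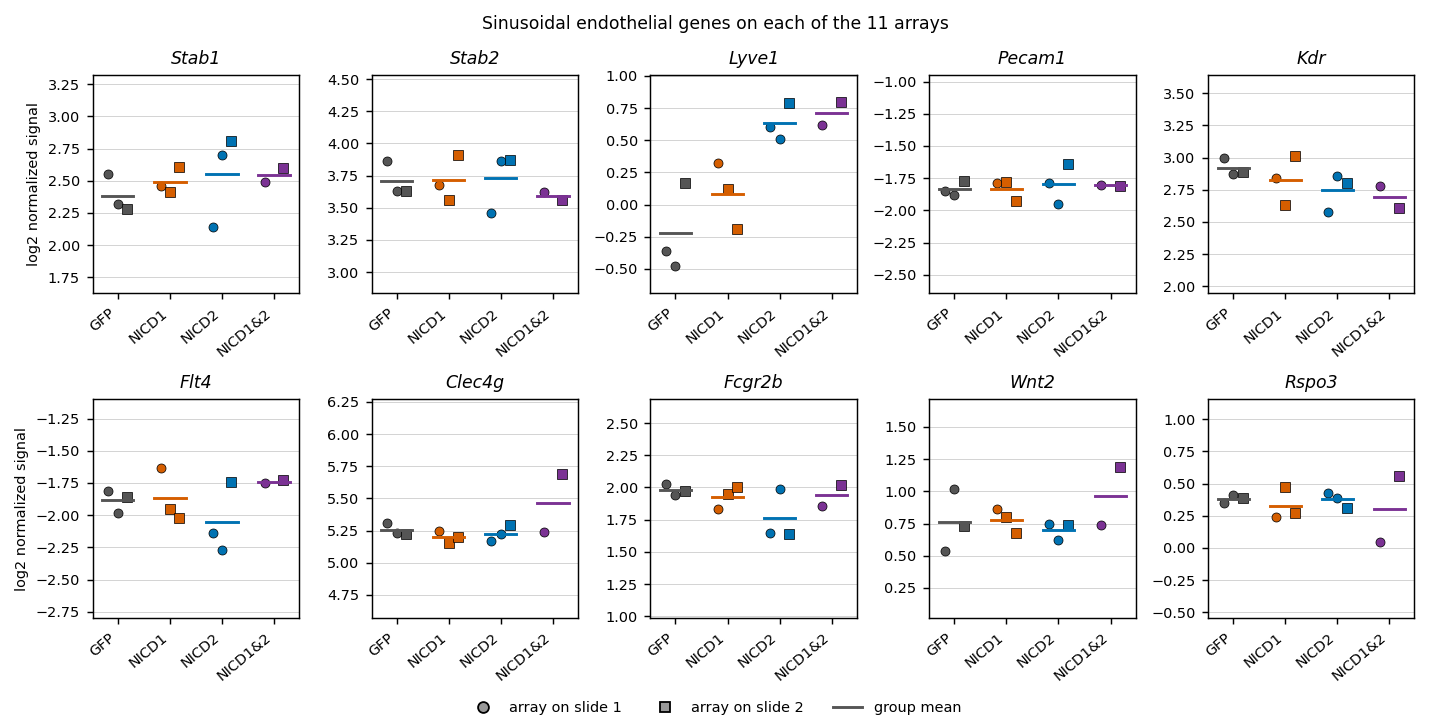
Log2 normalized signal (y axis, each panel spanning the same width) of the 10 sinusoidal endothelial genes in the GFP, NICD1, NICD2 and NICD1&2 groups, with 1 point per array (circles slide 1, squares slide 2) and a bar at the group mean. The NICD2 and NICD1&2 arrays of Lyve1 lie above all GFP arrays, whereas in the other genes the groups lie close together, and the Clec4g value of 5.69 in NICD1&2 replicate 2 stands above all other arrays.

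None of the 10 genes passed the limma test at an adjusted p of 0.05 in any of the 6 pairwise comparisons or in the interaction of NICD1 and NICD2. Among all probes tested, 0.00832% (NICD1), 0.0527% (NICD2) and 0.0915% (NICD1&2) passed in the comparisons with GFP, 0.00277% between NICD1 and NICD2, 0.0139% and 0.00277% for NICD1&2 against NICD1 and against NICD2, and 0 in the interaction. At an unadjusted p under 0.05, 0 of 10 genes were counted with NICD1 (5.49% of all probes), 1 with NICD2 (6.79%) and 1 with NICD1&2 (14.8%), which was Lyve1 both times. Lyve1 was also the 1 gene so counted between NICD1 and NICD2 (3.74%) and between NICD1&2 and NICD1 (12.4%), and there were 0 between NICD1&2 and NICD2 (8.91%) and 0 in the interaction (7.03%). By the definition the study used for its own gene lists, P under 0.15 and a fold change over 1.8, the counts were 0 with NICD1, 1 with NICD2 and 1 with NICD1&2, again Lyve1, against 2.22%, 1.98% and 6.22% of all probes. The median log2 fold change of the 10 genes was 0.0046 with NICD1, -0.019 with NICD2 and 0.083 with NICD1&2, beside 0.0022, 0.022 and 0.12 over the 16633 named genes tested.

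The precision of the comparison was such that the 95% interval of the log2 fold change lay wholly within 0.5 of 0 for 9 of the 10 genes with NICD1, where 43.7% of all probes did. It did so for 7 of the 10 with NICD2 (42.8% of all probes) and for 4 of the 10 with NICD1&2 (27.7%), the group with 2 arrays. Lyve1 was outside these limits in every comparison with GFP. Changes smaller than these intervals were not detectable with 3 or 2 arrays per group.

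**Figure D2:**
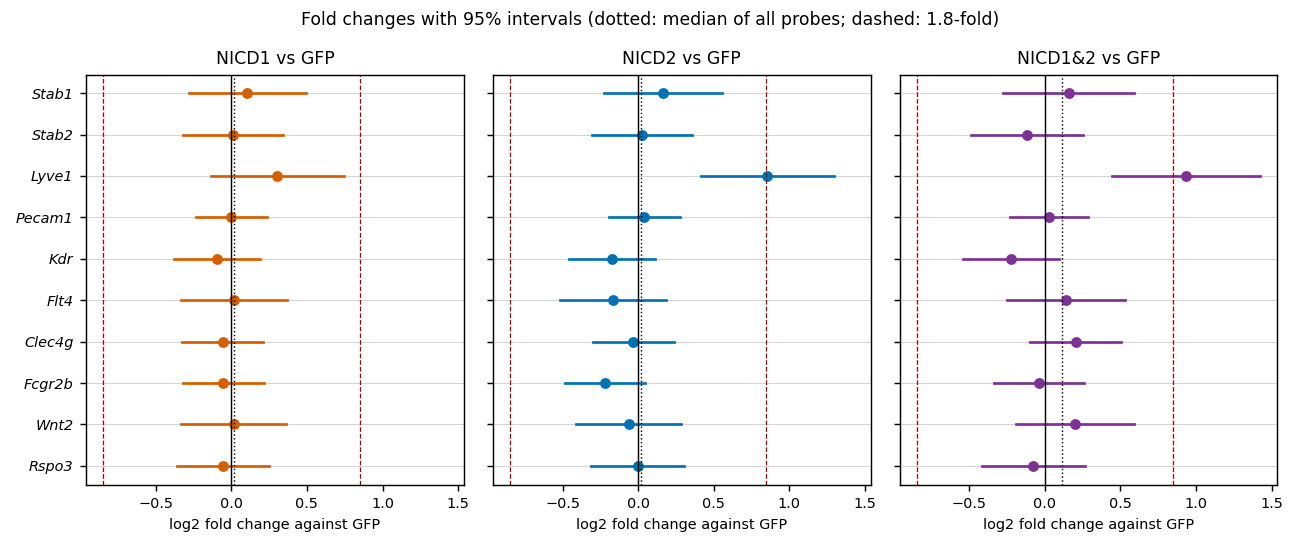
Log2 fold changes against GFP (x axis) of the 10 genes (y axis) with NICD1, NICD2 and NICD1&2, with points for the estimates and lines for 95% intervals of the limma fit. Lyve1 is the gene whose interval lies above 0, with NICD2 and with NICD1&2.

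Lyve1 encodes a hyaluronan receptor of sinusoidal and lymphatic endothelium. Its GFP arrays, measured by probe A_52_P686785, were at -0.36, -0.48 and 0.17, and the NICD1 arrays at 0.32, 0.12 and -0.19. The NICD2 arrays were at 0.60, 0.51 and 0.79, and the NICD1&2 arrays at 0.62 and 0.80. All 5 arrays that received NICD2 thus lay above all 6 arrays that did not, while NICD1 and GFP overlapped. This split of 5 against 6 arrays was not among the comparisons tested, and the share of all probes with it was not counted.

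The Lyve1 log2 fold change against GFP was 0.86 with NICD2 (SE 0.19, 95% interval 0.42 to 1.29), a ratio of 1.81, with an unadjusted p of 0.0017 and an adjusted p of 0.29 in limma. With NICD1&2 it was 0.93 (SE 0.22, 95% interval 0.44 to 1.42), a ratio of 1.91, with an adjusted p of 0.16 in limma. With NICD1 it was 0.30 (95% interval -0.14 to 0.74, limma adjusted p 0.91). The log2 difference of NICD1 from NICD2 was -0.55 (95% interval -0.99 to -0.11), and that of NICD1&2 from NICD1 was 0.63 (95% interval 0.14 to 1.12), and neither passed after adjustment (limma adjusted p 0.9998 and 0.36). NICD1&2 and NICD2 differed by 0.08 (95% interval -0.41 to 0.57), and the interaction was -0.23 (95% interval -0.88 to 0.43). The two-sided exact permutation p was 0.1 for NICD2 against GFP, the smallest that 3 against 3 arrays allow, and 0.2 for NICD1&2 against GFP, where 2 against 3 arrays also allow no less than 0.1.

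In the groups that received NICD2, the Lyve1 difference from GFP had the same sign on both slides. On slide 1 it was 0.98 with NICD2 and 1.04 with NICD1&2, and on slide 2, where GFP had 1 array, 0.62 and 0.63. With NICD1 alone the slides differed in sign, at 0.74 on slide 1 and -0.21 on slide 2. The NICD2 value was close to the study's limit of 1.8-fold, and without GFP replicate 1 (0.79), GFP replicate 2 (0.73) or NICD2 replicate 3 (0.78) it fell short of it. The NICD1&2 value fell short without GFP replicate 2 (0.80) and without NICD1&2 replicate 2 (0.84). Under normexp background correction with quantile normalization, the value of NICD1&2 was smaller, at 0.77, and passed the test (limma adjusted p 0.035), the single setting in which a member gene did.

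**Figure D3:**
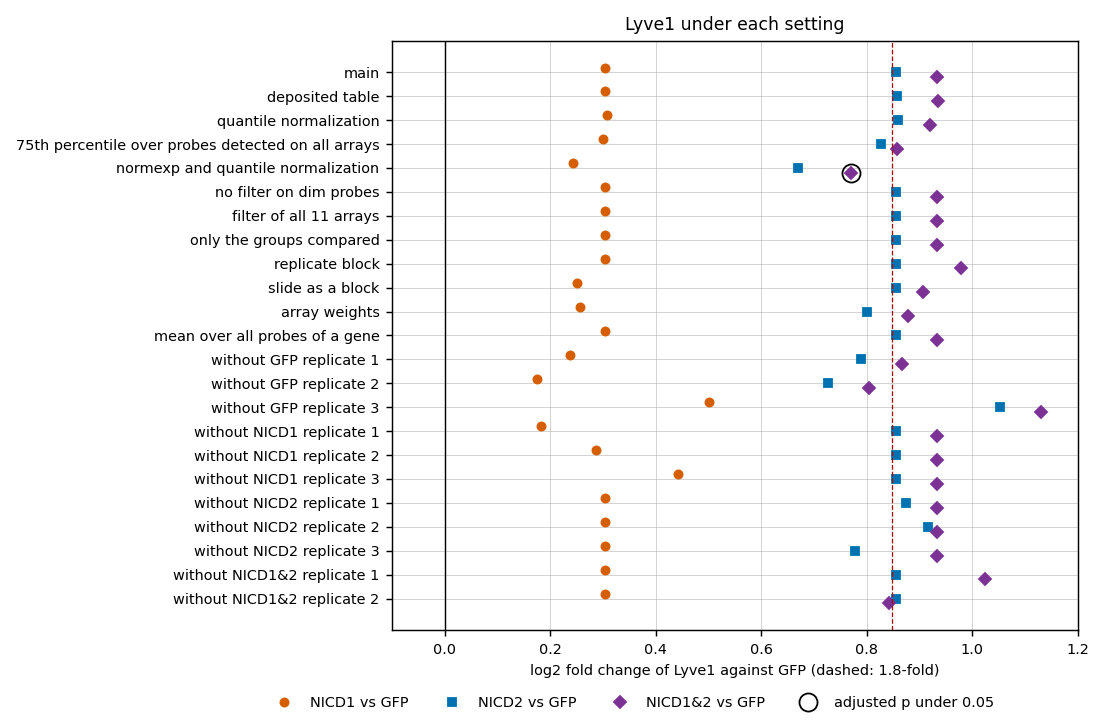
Log2 fold change of Lyve1 against GFP (x axis) under each processing setting and with each array left out (y axis), with circles for NICD1, squares for NICD2 and diamonds for NICD1&2, and a ring where the adjusted p was under 0.05. All points lie above 0, those of NICD2 from 0.67 to 1.05 and those of NICD1&2 from 0.77 to 1.13.

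The other scavenger, lectin and Fc receptors did not share the pattern of Lyve1. Stab1 and Stab2 encode the stabilins, large scavenger receptors that take up hyaluronan and other ligands. Stab1 was at 2.55, 2.32 and 2.28 in GFP, 2.46, 2.41 and 2.61 in NICD1, 2.14, 2.70 and 2.81 in NICD2, and 2.49 and 2.60 in NICD1&2. NICD2 held both the lowest and the highest Stab1 array, and its log2 fold change was 0.16 (95% interval -0.22 to 0.55), with 0.11 for NICD1 and 0.16 for NICD1&2.

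Stab2 was at 3.86, 3.63 and 3.63 in GFP, 3.68, 3.56 and 3.91 in NICD1, 3.46, 3.86 and 3.87 in NICD2, and 3.62 and 3.56 in NICD1&2. The NICD1&2 arrays lay just below those of GFP, by -0.12 on average (95% interval -0.49 to 0.25). On the second Stab2 probe this difference was -0.04 and the arrays overlapped. With NICD1 and NICD2 the first probe gave 0.01 and 0.02.

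Clec4g, also called LSECtin, is a C-type lectin of sinusoidal cells. Clec4g spanned 5.15 to 5.31 on 10 of the 11 arrays. The other array, NICD1&2 replicate 2, was at 5.69. The log2 fold change with NICD1&2 was 0.20 (95% interval -0.10 to 0.50), and without that array it was -0.02. With NICD1 and NICD2 it was -0.06 and -0.03, with intervals of -0.33 to 0.21 and -0.30 to 0.24.

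Fcgr2b encodes the Fc gamma receptor through which sinusoidal cells take up small immune complexes. Its first probe was at 2.03, 1.94 and 1.97 in GFP, 1.83, 1.95 and 2.00 in NICD1, 1.65, 1.99 and 1.64 in NICD2, and 1.86 and 2.02 in NICD1&2. NICD2 replicates 1 and 3 were the lowest arrays, and NICD2 replicate 2 lay among the GFP arrays. The log2 fold change with NICD2 was -0.22 (95% interval -0.48 to 0.05, limma adjusted p 0.81), and on the second Fcgr2b probe -0.28 (95% interval -0.59 to 0.02).

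The receptors of vascular growth factors differed little. Kdr encodes VEGFR2, the main receptor of VEGF-A on endothelium. Its GFP arrays were at 3.00, 2.87 and 2.89, its NICD1 arrays at 2.84, 2.63 and 3.01, its NICD2 arrays at 2.58, 2.86 and 2.80, and its NICD1&2 arrays at 2.78 and 2.61. All NICD2 and NICD1&2 arrays of Kdr were below all GFP arrays, both by a gap smaller than the spread among the GFP arrays. The log2 fold change of Kdr was -0.17 with NICD2 (95% interval -0.46 to 0.11, limma adjusted p 0.89), -0.23 with NICD1&2 (95% interval -0.54 to 0.09, limma adjusted p 0.44) and -0.09 with NICD1.

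Flt4 encodes VEGFR3, the receptor of VEGF-C and VEGF-D, which sinusoidal cells share with lymphatic endothelium. It was at -1.81, -1.98 and -1.86 in GFP, -1.63, -1.95 and -2.02 in NICD1, -2.14, -2.27 and -1.74 in NICD2, and -1.75 and -1.73 in NICD1&2. The NICD1&2 arrays lay above those of GFP, with a log2 fold change of 0.14 (95% interval -0.25 to 0.53), close to the median of all probes in that comparison. With NICD2 the value was -0.16 (95% interval -0.51 to 0.18). Pecam1, the adhesion molecule CD31 of all endothelia, ranged from -1.95 to -1.64 over the 11 arrays, and its 3 fold changes lay between -0.0012 and 0.041.

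In all, the arrays did not overlap with those of GFP for 0 of the 10 genes with NICD1 (12.4% of all probes), for 2 with NICD2 (13.3%), and for 4 with NICD1&2 (34.5%). With NICD2, Lyve1 lay above GFP (7.63% of all probes did) and Kdr below (5.71%). With NICD1&2, Lyve1 and Flt4 lay above (24% of all probes did) and Stab2 and Kdr below (10.5%). Between the Notch groups, Lyve1 was the single gene without overlap for NICD1 against NICD2 (9.26% of all probes) and for NICD1&2 against NICD1 (30.7%), and no gene was without overlap for NICD1&2 against NICD2 (25.3%).

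Wnt2 and Rspo3, the ligand and the Wnt enhancer that central vein and perivenous sinusoidal endothelium release, had 95% intervals that included 0 in every comparison with GFP. Wnt2 was at 0.54, 1.02 and 0.73 in GFP, 0.86, 0.80 and 0.68 in NICD1, 0.75, 0.62 and 0.74 in NICD2, and 0.74 and 1.19 in NICD1&2. GFP spanned most of the range of Wnt2, the highest array was NICD1&2 replicate 2, and the log2 fold changes were 0.02 with NICD1 (95% interval -0.33 to 0.36), -0.06 with NICD2 (95% interval -0.41 to 0.29) and 0.20 with NICD1&2 (95% interval -0.19 to 0.59). Without NICD1&2 replicate 2 the last was -0.02. Rspo3 was at 0.35, 0.41 and 0.39 in GFP, 0.24, 0.47 and 0.27 in NICD1, 0.43, 0.39 and 0.31 in NICD2, and 0.05 and 0.56 in NICD1&2. The NICD1&2 arrays were the lowest and the highest of all for Rspo3, and the fold change of that group was -0.33 without replicate 2 and 0.18 without replicate 1.

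The ligands, receptors and perivenous targets of the Wnt and R-spondin signal formed a list of 25 genes, of which 24 were tested. None passed at an adjusted p of 0.05 in limma with NICD1, NICD2 or NICD1&2, and the medians were -0.06, -0.07 and 0.00053. By the study's definition 2 were lower with NICD1 (0.494% of all probes were), 2 lower with NICD2 (0.66%) and 2 higher with NICD1&2 (4.78%). The 2 higher genes, named after their values were seen, were Rspo1 (0.92) and Lgr6 (1.05). Axin2, a feedback inhibitor of Wnt signaling, had group means of -2.16 in GFP, -3.09 in NICD1, -3.52 in NICD2 and -2.56 in NICD1&2, with log2 fold changes of -0.92 for NICD1 (95% interval -1.73 to -0.11) and -1.36 for NICD2 (95% interval -2.17 to -0.54, limma adjusted p 0.40). Sp5, a transcription factor induced by Wnt, was at -0.86 with NICD1, and Tbx3, a transcription factor of perivenous hepatocytes, at -1.12 with NICD2. With NICD1&2 the values of Axin2, Sp5 and Tbx3 were -0.39, -0.08 and -0.56, and the lowest gene of the list was Lgr5, a receptor of R-spondins, at -0.82 (95% interval -1.28 to -0.36, limma adjusted p 0.18). Without GFP replicate 1 the values were -0.56 for Axin2 and -0.65 for Sp5 with NICD1 and -0.74 for Tbx3 with NICD2, all short of the study's 1.8-fold, so that the 2 genes lower with NICD1 and Tbx3 with NICD2 depend on that array, while Axin2 with NICD2 was still past 1.8-fold at -0.995. Sp5 also fell short without GFP replicate 2 (-0.82), NICD1 replicate 2 (-0.80) or NICD1 replicate 3 (-0.78), and Axin2 with NICD1 just did without NICD1 replicate 3 (-0.847). Under normexp and quantile normalization together the Axin2 values were smaller, at -0.36 with NICD1 and -0.45 with NICD2. Glul, the glutamine synthetase of the hepatocytes next to the central vein, was at -0.06, -0.10 and 0.01 with NICD1, NICD2 and NICD1&2.

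A wider set of 20 other sinusoidal endothelial genes was tested in full, and none passed at an adjusted p of 0.05 in limma or by the study's definition with NICD1, NICD2 or NICD1&2. The medians were 0.04, -0.05 and 0.03, and single genes ranged from -0.16 (Gata4) to 0.30 (Cd209b) with NICD1 and from -0.23 (Gata4) to 0.32 (Ehd3) with NICD2. With NICD1&2 they ranged from -0.45 for Meis2, a transcription factor, to 0.35 for Ehd3. All 20 pan-endothelial genes were tested and again none passed either rule, with medians of 0.02, -0.04 and -0.09. Cldn5, a tight junction claudin, was the lowest of these with NICD1, NICD2 and NICD1&2, at -0.20, -0.46 and -0.40. Of the 10 VEGF and angiopoietin ligands and co-receptors none passed either rule, with medians of 0.02, 0.03 and 0.29, and Vegfa was at -0.34, -0.35 and -0.35.

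The list of genes typical of capillaries, veins and arteries, which sinusoidal cells express less, had higher medians, at 0.12 with NICD1, 0.28 with NICD2 and 0.45 with NICD1&2 over the 17 of 20 genes that were tested. None passed at an adjusted p of 0.05 in limma, and by the study's definition 1, 0 and 3 genes were higher, against 1.73%, 1.32% and 4.78% of all probes. The 1 with NICD1, named after its value was seen, was Cav1 (0.853, 95% interval 0.02 to 1.68), a protein of caveolae. It was barely past the 1.8-fold limit, which is 0.848 in log2. The 3 with NICD1&2 were Esm1, Vcam1 and Aplnr, of which Aplnr exceeded background clearly on 2 of the 3 GFP arrays. This count rested on single arrays, since without GFP replicate 1 Aplnr was at 0.32, and without GFP replicate 2 or NICD1&2 replicate 1 Vcam1 was at 0.84 or 0.82, short of 1.8-fold. Esm1, a secreted proteoglycan of sprouting endothelium, had group means of -1.58 in GFP, -1.40 in NICD1, -0.91 in NICD2 and -0.42 in NICD1&2. The Esm1 arrays of NICD1&2, both at -0.42, lay above all GFP arrays (-1.87 to -1.35). Its log2 fold change with NICD1&2 was 1.16 (95% interval 0.69 to 1.64, limma adjusted p 0.10), and it passed when only probes detected on all 11 arrays were tested (adjusted p 0.042 in limma) and with normexp and quantile normalization (0.71, adjusted p 0.019). In all other settings and with any 1 array left out it did not pass (limma adjusted p 0.076 to 0.45). Vcam1, an adhesion molecule for leukocytes that cells other than endothelium also express, was at 0.29 with NICD1, 0.79 with NICD2 and 0.99 with NICD1&2 (95% interval 0.48 to 1.51, limma adjusted p 0.16).

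**Figure D4:**
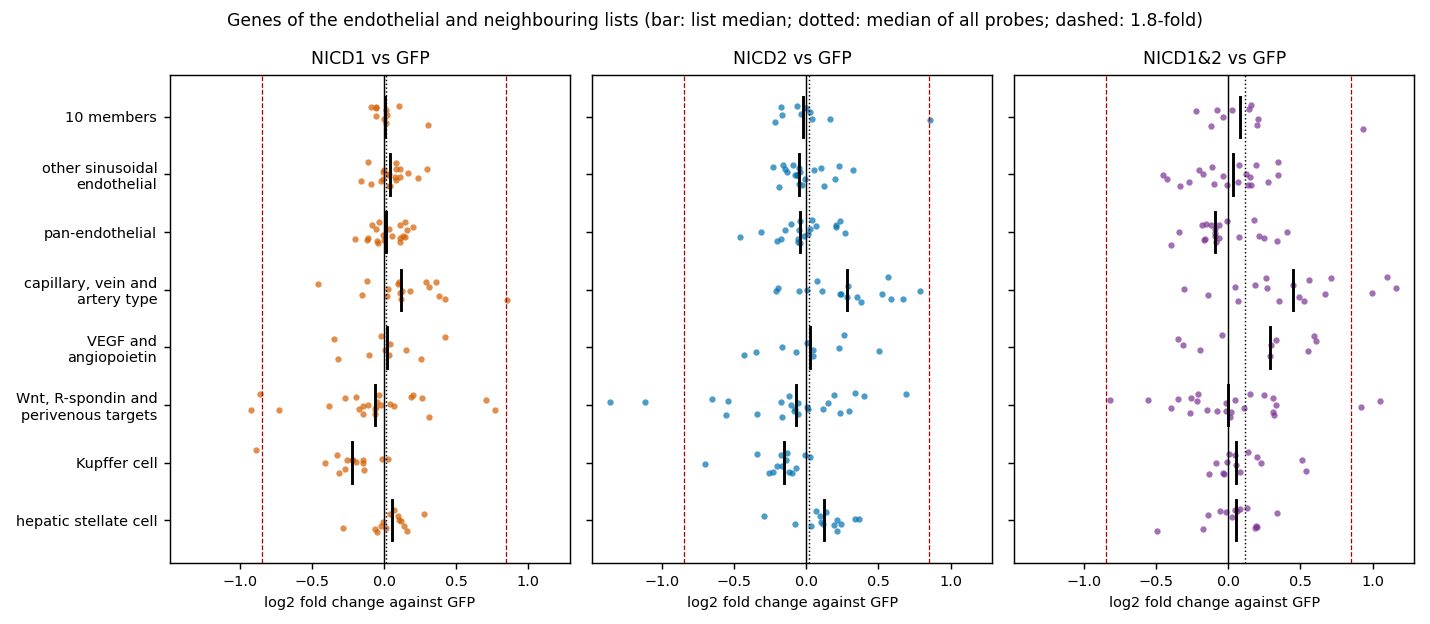
Log2 fold changes against GFP (x axis) of the genes of the endothelial, Wnt, Kupffer and stellate cell lists (y axis), with 1 point per gene and a bar at the list median. The other sinusoidal and pan-endothelial genes cluster near 0 like the 10 members, and the capillary, vein and artery type genes have medians of 0.12, 0.28 and 0.45.

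Markers of the cells around the sinusoid were examined beside these results. The 14 Kupffer cell genes, all tested, had medians of -0.22, -0.15 and 0.05 with NICD1, NICD2 and NICD1&2. Over all named genes tested the medians were 0.0022, 0.022 and 0.12. None of the Kupffer cell genes passed at an adjusted p of 0.05 in limma. By the study's definition 1 of them was lower, Marco with NICD1, where 0.494% of all probes were. Marco was at -0.89 there (95% interval -1.91 to 0.14, limma adjusted p 0.90), with arrays that overlapped those of GFP. The stellate cell genes, 14 of 14 tested, had medians of 0.05, 0.13 and 0.05 and none past either rule. The 12 hepatocyte genes had medians of -0.12, 0.05 and 0.14 and none past either rule. The bile duct genes, 10 of 10 tested, had medians of 0.43, 0.46 and 0.76 with NICD1, NICD2 and NICD1&2. By the study's definition 2, 2 and 4 of them were higher, against 1.73%, 1.32% and 4.78% of all probes. Among them Spp1 (osteopontin) rose by 1.81 with NICD2 and 2.23 with NICD1&2 (limma adjusted p 0.028 and 0.011). It was the single bile duct gene that passed at an adjusted p of 0.05. With NICD1 Spp1 was at 1.71 (95% interval 1.25 to 2.16, limma adjusted p 0.099), met the study's definition without overlap of arrays, and passed with normexp and quantile normalization (adjusted p 0.018 in limma) and among probes detected on all 11 arrays (adjusted p 0.028 in limma). The Spp1 calls were lost with only the groups compared (limma adjusted p 0.18 with NICD2 and 0.32 with NICD1&2) and, for NICD2, with no filter on dim probes (limma adjusted p 0.056) and without GFP replicates 1 or 2, NICD1 replicates 1 or 3 or any 1 of the 3 NICD2 arrays, and for NICD1&2 without GFP replicate 2 or NICD1&2 replicate 2, at limma adjusted p-values of 0.050 to 0.19, with values of 1.68 to 1.94 and 2.07 to 2.20. The summed signal of the bile duct genes was 8.08 to 11.2 times the 75th percentile on the GFP arrays and 23.6 to 41.4 on the others, and Spp1 made up most of it, since without Spp1 the sums were 1.88 to 2.01 and 2.04 to 2.77. Sox9, a transcription factor of bile duct cells, was at 0.23, 0.84 and 1.16 with NICD1, NICD2 and NICD1&2, and fell short of 1.8-fold with NICD1&2 without replicate 1 of that group (0.62) and with normexp and quantile normalization (0.73). Cldn4 passed that definition with NICD1&2, but only 1 of the 3 GFP arrays and 1 of the 2 NICD1&2 arrays detected it clearly, so no difference is given.

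None of the 13 Notch pathway genes tested passed at an adjusted p of 0.05 in limma under the main processing. By the study's definition 1, 2 and 3 were higher with NICD1, NICD2 and NICD1&2, against 1.73%, 1.32% and 4.78% of all probes. Nrarp, a feedback target of Notch, was not well above background on any GFP array. Against the lowest signal detected there (mean floor -4.67, measured GFP mean -5.99) it was at least 4.65-fold higher with NICD2 and 7.07-fold with NICD1&2 (limma adjusted p 0.10 and 0.072). These bounds hold for the main processing only. Across the alternatives the Nrarp log2 fold change fell to 0.53 with NICD2 and 0.67 with NICD1&2. With normexp and quantile normalization Nrarp passed in both groups (limma adjusted p 0.018 and 0.0074). With NICD1 it was well above background on 2 of 3 arrays, and no fold is given. Hes1, another Notch target, was at -0.03 with NICD1, 1.64 with NICD2 and 1.36 with NICD1&2, and with normexp and quantile normalization at 0.74 and 0.49 in the latter groups, short of 1.8-fold. In the platelet, B cell, T and natural killer cell, monocyte and neutrophil, and red blood cell lists none passed at that limit, and their medians lay between -0.30 and 0.21, while among the 6 exocrine pancreas genes tested Pnliprp1, not well above background on any GFP array, passed with NICD2 (at least 5.43-fold higher, limma adjusted p 0.0045) and NICD1&2 (at least 5.36-fold, limma adjusted p 0.0096), calls that were lost with only the groups compared (limma adjusted p 0.086 and 0.32) and, for NICD1&2, with quantile normalization (limma adjusted p 0.053) and without its replicate 2 (limma adjusted p 0.18). These Pnliprp1 bounds hold for the main processing only. Across the alternatives its log2 fold change fell to 0.66 with NICD2 and 0.63 with NICD1&2, short of 1.8-fold. With NICD1 2 of 3 arrays measured Pnliprp1, and no fold is given. The 9 monocyte and neutrophil genes tested had medians of -0.29, -0.02 and -0.08, with Mpo the highest at 0.09, 0.43 and 0.77. By the study's definition 0.494% of all probes were lower with NICD1, and 6.22% were lower or higher with NICD1&2. Lower by it and without overlap were the myeloid genes Retnlg (-0.99 with NICD1 and -1.11 with NICD1&2) and Itgam (-0.98 with NICD1&2). All 3 values fell short of 1.8-fold with normexp and quantile normalization (-0.27, -0.27 and -0.81) and with 1 array left out: Retnlg without GFP replicate 1 (-0.74, NICD1) or NICD1&2 replicate 1 (-0.78, NICD1&2), and Itgam without GFP replicate 1 (-0.80) or NICD1&2 replicate 2 (-0.79). Ncr1, a natural killer cell receptor, was higher by that definition in the NICD1 and NICD1&2 groups but lay near background, and 2 of 3 GFP arrays measured it. The part of these cell types in the endothelial values was not tested.

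NICD1&2 replicate 2 stood apart in several sums of signal. The summed signal of the 10 genes was 85.6 times the 75th percentile on that array and 65.6 to 76.3 on the other 10. Clec4g carried that excess, since without Clec4g the sum was 34.1 there and 29.6 to 37.4 on the other 10. For the 20 other sinusoidal genes it was 160 against 121 to 146, for the pan-endothelial genes 95.1 against 77.1 to 88.0, and for the red blood cell genes 871 against 441 to 649. The array was also the highest for the capillary, vein and artery list, whose median was 0.45 with NICD1&2 (sum 22.1 against 14.98 to 20.2), for the VEGF and angiopoietin list (1079.5 against 591 to 996, the latter on NICD1&2 replicate 1) and for the Wnt and R-spondin list (1529.7 against 1146 to 1458). The same array was highest for the T and natural killer cell, bile duct and hepatocyte lists, with sums of 22.1, 41.4 and 6184. The highest sums on other arrays were 20.1, 33.8 and 6007. Its part in the values of these lists was not tested. Lyve1 was the highest of all arrays there, at 0.80, but was at 0.62 in NICD1&2 replicate 1, also above all GFP arrays.

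Over the 11 arrays the members varied together only in part. Stab2 followed Kdr (Pearson r = 0.80) and Stab1 (r = 0.76), while Lyve1 ran opposite to Kdr (r = -0.63) and Fcgr2b opposite to Pecam1 (r = -0.68), and the median over the 45 pairs was 0.10. The tested genes most like the mean standardized pattern of the members were Bcam (r = 0.95), Acsf2 (0.94), Vps4a (0.94), Myo18a (0.93), Rnf215 (0.93), Slc44a2 (0.93), Grk6 (0.92) and Hoxb4 (0.92), all well above background on 11 of 11 arrays. These are descriptions over arrays that share slides, groups and a scaling step, and carry no p.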

How the data were processed

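Gene expression was measured in whole liver RNA with 1-colour Agilent mouse arrays, 11 in all. The authors deposited scanner files holding spot intensities (gProcessedSignal, from Feature Extraction 11.5.1.1) and a table of log2 values normalized by the authors to the 75th percentile. Per the labels the RNA was prepared with NucleoSpin RNA XS, and per the study's methods with the RNeasy Micro Kit. Here gProcessedSignal was averaged over the spots of each non-control probe. The log2 of this mean less the log2 of the array's 75th percentile over probes was used. Of the 56605 probes, the 36055 that were well above background on at least 2 arrays were tested. The deposited log2 table differed from these values by at most 0.0089 for the member probes. On each array 57.0 to 62.0% of spots were well above background and none were saturated, and the number of arrays limits the precision. Arrays lay on 2 slides, each holding all 4 groups. Probes were named through RefSeq accessions, and the brightest probe stood for a gene with several.

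Groups were fitted together with limma 3.58.1 in R 4.3.3, with Benjamini-Hochberg adjustment over all probes tested, and the fit was checked on simulated data. An exact permutation of arrays was run for single probes. The study's methods state that at least 3 mice were used per experimental group, and n = 3 for these arrays (2 for NICD1&2). The labels do not tie each array to a mouse, so p-values measure the spread between these samples. The members and the gene lists were chosen with earlier results of these data known. Named were all members, list genes whose probe had an adjusted p under 0.05 or met the study's definition without overlap of arrays, list genes at the ends of a range, and the 8 genes most like the members' mean pattern. Glul, Vegfa, Sp5 and Tbx3 in further comparisons, Cldn5, and the Clec4g array were described after their values were seen. Alternatives were the deposited table, quantile normalization, another percentile, normexp followed by quantile normalization, filters, the groups compared alone, replicate number and slide as blocks, array weights, the mean of a gene's probes, and each array left out.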

Additional observations from a re-analysis of the deposited data

How the results depend on the processing

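The number of arrays limits what could be shown: with 3 or 2 arrays per group, differences within the intervals given were not detectable. The count of member genes with an adjusted p under 0.05 stayed 0 in all comparisons and in the interaction under 11 alternatives and with each of 11 arrays left out, except with normexp and quantile normalization together, where it was 1 for NICD1&2 against GFP (Lyve1) and the median of the members there was -0.065. Fitting only the groups compared could not be done for the interaction. Lyve1 kept its sign against GFP under all of these. The count by the study's definition for NICD2 was 0 with the 75th percentile over probes detected on all arrays, with normexp and quantile normalization, with array weights and without GFP replicate 1, GFP replicate 2 or NICD2 replicate 3, and for NICD1&2 it was 0 with normexp and quantile normalization and without GFP replicate 2 or NICD1&2 replicate 2. The cause was not tested.

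Some member values changed sign. With quantile normalization Pecam1 was 0.00344 with NICD1 and -0.000378 with NICD1&2, and Stab2 -0.00816 with NICD2. With the percentile over detected probes Stab2 was -0.00394 with NICD2 and Pecam1 -0.050 with NICD1&2. With normexp and quantile normalization and NICD1, Stab2 was -0.041, Flt4 -0.00397, Wnt2 -0.00257 and Rspo3 5.6e-05, with NICD2 Rspo3 was 0.013, and with NICD1&2 Pecam1 was -0.049, Flt4 -0.00977 and Clec4g -0.13. Wnt2 with NICD1 was -0.00485 with slide as a block and -0.019 with array weights. With 1 array left out in turn, more values changed sign. With NICD1 the ranges were for Stab2 from -0.088 to 0.091, Pecam1 from -0.027 to 0.048, Kdr from -0.19 to 0.0035, Flt4 from -0.099 to 0.095 and Wnt2 from -0.098 to 0.14. With NICD2 they were for Stab2 from -0.045 to 0.16, Pecam1 from -0.037 to 0.12, Wnt2 from -0.17 to 0.067 and Rspo3 from -0.033 to 0.029. With NICD1&2, where 1 remaining array was assumed to vary like the other groups, they were for Clec4g from -0.022 to 0.43, Fcgr2b from -0.12 to 0.045, Wnt2 from -0.025 to 0.43 and Rspo3 from -0.33 to 0.18. With 1 array left out, the median of the members ran from -0.028 to 0.0091 for NICD1 against GFP and from -0.023 to 0.17 for NICD1&2 against GFP. It ran from -0.031 to 0.064 for NICD1 against NICD2 and from -0.022 to 0.12 for NICD1&2 against NICD1. For NICD1&2 against NICD2 it ran from -0.00073 to 0.18, and for the interaction from 0.00074 to 0.11.

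The replicate numbers did not pair the samples: over 15 pairs of groups and equal numbers the correlation of deviations ran from -0.41 to 0.17, and 6 were over 0.1. With the replicate number as a block, 0 member genes were called in any comparison, and Lyve1 was at 0.86 with NICD2 (limma adjusted p 0.45) and 0.98 with NICD1&2 (limma adjusted p 0.23).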
